A study of Rattus norvegicus with 2 samples.

Results

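Glycolysis and the response to low oxygen were followed through 32 genes in whole-kidney RNA from female rats of the PCK strain, which serves to model recessive polycystic kidney disease. The pioglitazone group received 10 mg/kg of this PPAR-gamma agonist by daily gavage between week 4 and week 20 of age, and the vehicle group received 0.5% DMSO in the same way. All animals were PCK females, so no kidney without cysts stands in the comparison, and +/+ rats were not analysed here. RNA was pooled within each group, from 5 females according to the design text or from 3 rats according to the labelling text, and each pool was hybridised to 1 one-colour Agilent array. The genes comprised 17 glycolytic enzymes, 2 transporters of glucose and lactate, 4 regulators of the hypoxia-inducible factors (HIF) and 9 of their targets. A probe was taken as a member when its accession mapped to one of these genes in RefSeq's GRCr8 gene table, which gave 37 probes for 29 of the 32 genes, out of 13435 named genes on the array. Pfkp, Eno2 and Egln1 had no probe assigned and are not analysed here. Epo was not well above background on either array, so 28 members were measured, among 10484 measured genes.

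Glycolysis splits glucose to pyruvate in the cytosol, and lactate dehydrogenase turns pyruvate into lactate when mitochondria do not take it up. HIF is a transcription factor whose alpha subunits are hydroxylated by oxygen-dependent prolyl hydroxylases (the Egln genes) and degraded, and which, when oxygen is short, induces glucose transporters, glycolytic enzymes, angiogenic factors and erythropoietin. In the kidney the proximal tubule mainly makes glucose and burns fatty acids, glycolysis is more active in distal segments, and the medulla works at low oxygen tension. Cyst epithelium of the dominant form of polycystic kidney disease has been described as strongly glycolytic in mice and humans.

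No member met the criterion for a difference, which was 1.5-fold in either direction and more than 2 times the technical error. This compares with 2.51% of all measured genes, 0.754% higher and 1.76% lower in the pioglitazone pool. That share fell with signal. It was 6.26% under 100, 1.38% between 100 and 1000, 0.69% between 1000 and 10000, and 0% at 10000 or more. Of the members, 2, 8, 10 and 8 lay in these classes, so a count of 0 says little about these genes in particular. Of the 28 measured members, 16 had a positive difference and 12 a negative one, and 56.1% of all measured genes had a positive one. Differences are pioglitazone minus vehicle on the log2 scale throughout, after the pioglitazone array was brought to the 75th percentile of the vehicle array. Signals are given on that common scale. The technical error combines the scanner software's error of both spots, was 0.20 for most members, and holds no spread between animals. It was averaged over replicate spots and not made smaller by their number. Replicate spots varied less, with a median SD of 0.07 for the difference at a single spot in 75 probes with signals between 100 and 1000. A difference or gap inside the technical error can thus still exceed the spread of replicate spots. Each group had a single array, so the differences below carry no replicate error and no test, and the number of arrays limits the precision. In a pool of whole kidney, fewer cells of a type and less RNA per cell cannot be told apart. Of the 28 members, 21 lay within 1 technical error of 0, as did 73.3% of all measured genes. The 7 outside were Pdk1, Car9, Adm, Tpi1 and Pgk1 on the positive side and Ddit4 and Egln3 on the negative side.

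**Figure D1:**
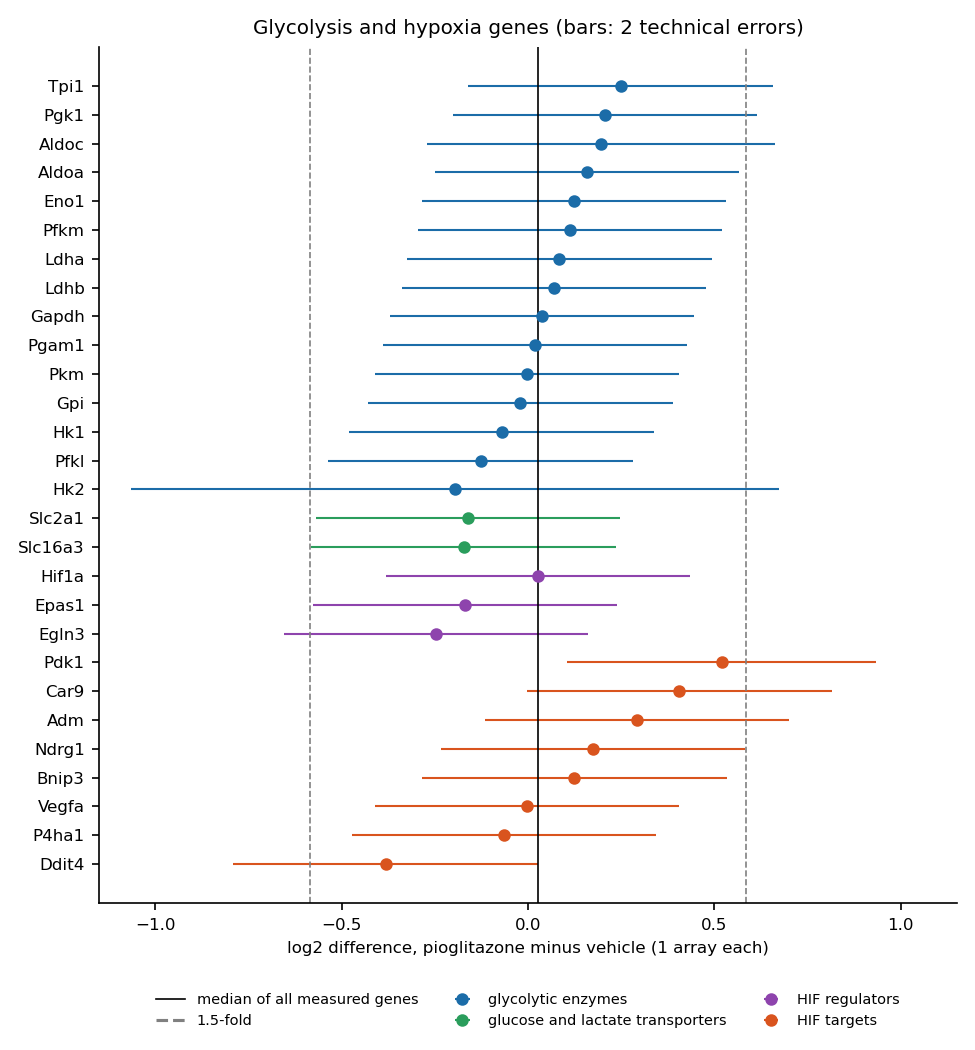
Log2 difference (pioglitazone minus vehicle, 1 array each) of the 28 measured members, grouped by role, with bars of 2 technical errors. The solid vertical line is the median of all measured genes (0.03) and the dashed lines mark 1.5-fold. All points lie inside the dashed lines, and of the 28 bars that of Pdk1 alone stays clear of 0.

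The upstream sequences of 5 members are shown because they hold, or lack, ACGTG, which is one form of the core of the hypoxia response element, and because these genes span the range of differences described below. They are the 250 bases before the annotated start, 5′ to 3′ on the gene's own strand, from RefSeq's GRCr8 assembly. Capitals mark ACGTG on either strand, and adjoining capitals reading CACGTG hold the core on both strands and are also an E-box. The core can begin with A or with G, and GCGTG, its other form, is not in capitals. The window of Pdk1 lacks ACGTG but holds GCGTG 2 times.
Ldha (chr1:106507842-106508091, plus strand): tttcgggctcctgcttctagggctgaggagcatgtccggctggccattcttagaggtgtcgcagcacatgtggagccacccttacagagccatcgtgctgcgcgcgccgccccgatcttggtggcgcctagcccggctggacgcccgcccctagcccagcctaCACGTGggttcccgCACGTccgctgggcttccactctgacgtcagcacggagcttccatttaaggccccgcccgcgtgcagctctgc
Bnip3 (chr1:203154963-203155212, minus strand): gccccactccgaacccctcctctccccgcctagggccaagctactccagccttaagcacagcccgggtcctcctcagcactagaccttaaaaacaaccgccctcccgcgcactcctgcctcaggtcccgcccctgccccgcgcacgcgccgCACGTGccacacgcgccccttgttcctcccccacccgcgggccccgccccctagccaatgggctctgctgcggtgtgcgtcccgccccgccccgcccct
Slc2a1 (chr5:138002272-138002521, plus strand): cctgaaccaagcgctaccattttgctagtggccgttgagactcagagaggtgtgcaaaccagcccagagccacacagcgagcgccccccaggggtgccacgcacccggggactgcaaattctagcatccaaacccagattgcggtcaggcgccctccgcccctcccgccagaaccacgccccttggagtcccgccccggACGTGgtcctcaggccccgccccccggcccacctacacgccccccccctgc
Ddit4 (chr20:28437038-28437287, minus strand): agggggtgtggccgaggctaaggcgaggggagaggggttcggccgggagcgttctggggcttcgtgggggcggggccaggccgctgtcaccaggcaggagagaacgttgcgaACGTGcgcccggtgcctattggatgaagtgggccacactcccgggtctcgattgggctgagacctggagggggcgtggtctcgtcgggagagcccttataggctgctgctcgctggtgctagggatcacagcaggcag
Pdk1 (chr3:77113264-77113513, plus strand): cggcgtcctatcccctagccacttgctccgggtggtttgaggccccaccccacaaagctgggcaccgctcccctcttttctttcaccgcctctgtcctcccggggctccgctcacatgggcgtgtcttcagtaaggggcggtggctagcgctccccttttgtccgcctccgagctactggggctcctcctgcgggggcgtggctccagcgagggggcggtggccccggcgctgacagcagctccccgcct
Of 30 members with such a window, 12 held ACGTG in at least 1 window. Pgk1 and Ndrg1 had no window and are left out of the counts and medians of this paragraph. Counted by window it was 12 of 35 (34.3%), against 16.6% of all 33469 windows of the same length. The core stood inside CACGTG in 3 member windows, those of Ldha, Bnip3 and Hif1a. ACGTG was found in 8 of 16 glycolytic enzymes and in 2 of 8 HIF targets, Bnip3 and Ddit4, and GCGTG in 8 of the 16 enzymes and in 5 of the 8 targets, Pdk1, Bnip3, Epo, P4ha1 and Ddit4. Counted by window GCGTG stood in 16 of 35 (45.7%), against 25.9% of all windows. With either form counted, 12 of the 16 enzymes and 5 of the 8 targets held a core. By window this was 21 of 35 (60.0%), against 36.7% of all windows. A match of letters is not a binding site, and response elements also lie outside such short windows. The 11 measured members with ACGTG had differences between -0.38 and 0.20, with a median of 0.04, and the 15 without it had differences between -0.25 and 0.52, with a median of -0.003. With either form counted, the 16 measured members with a core ran between -0.38 and 0.52 with a median of 0.05, and the 10 without one ran between -0.25 and 0.41 with a median of -0.01. The count of GCGTG was added after the data were seen.

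The glycolytic enzymes differed little between the pools. Of 15 measured enzymes, 0 met the criterion and 13 lay within 1 technical error of 0, with differences between -0.20 and 0.25 and a median of 0.07. Over all measured genes 2.51% met the criterion, 73.3% lay within 1 technical error and the median was 0.03. In the first steps, Hk1, the widely expressed hexokinase, had a signal of 8226 in the pioglitazone pool and 8640 in the vehicle pool (-0.07). Hk2, the hexokinase that HIF and insulin induce in other tissues, was dim, at 7.90 with pioglitazone and 9.04 with vehicle (-0.20, technical error 0.44). Gpi, which isomerises glucose-6-phosphate, had signals of 11144 with pioglitazone and 11300 with vehicle (-0.02). At the hexokinase step the gap between the isoforms, Hk2 minus Hk1, was -0.12, smaller than its combined technical error of 0.48.

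Phosphofructokinase commits hexose to glycolysis. Its muscle-type subunit Pfkm had signals of 4269 in the pioglitazone pool and 3950 in the vehicle pool (0.11), and its liver-type subunit Pfkl had 421 with pioglitazone and 460 with vehicle (-0.13). These 2 subunits had opposite signs, and the gap between them, 0.24, was smaller than its combined technical error of 0.29. Aldoa, the main aldolase of muscle and many other cells, had 17756 with pioglitazone and 15900 with vehicle (0.16). Aldoc, the brain-type aldolase, had 32.3 with pioglitazone and 28.2 with vehicle (0.20), so both aldolases were on the positive side by less than 1 technical error. Tpi1, which interconverts the triose phosphates, had the largest positive difference among the enzymes, with 5714 in the pioglitazone pool and 4810 in the vehicle pool, 1.19-fold or 0.25 from 1 spot. A difference as high as that of Tpi1 or higher was found in 9.53% of measured genes.

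The lower steps, which yield ATP, were read partly from probes printed 10 times on each array. These spots repeat the measurement of 1 pool and are not replicates of the treatment. Pgk1, phosphoglycerate kinase, had spots between 12278 and 13411 (median 12844) in the pioglitazone pool and between 10600 and 11400 (median 11200) in the vehicle pool. All 10 pioglitazone spots lay above all 10 vehicle spots, and the difference was 0.21. Gapdh, which oxidises glyceraldehyde-3-phosphate, had spots between 41461 and 45428 (median 43114) with pioglitazone and between 40000 and 44100 (median 42250) with vehicle. Those spots overlapped and the difference was 0.04. Ldha, the lactate dehydrogenase subunit that favours lactate formation, had 9 usable spots between 3268 and 3466 (median 3391) with pioglitazone and between 2880 and 3310 (median 3220) with vehicle. Its spots overlapped too, and its difference was 0.08. Ldhb, the subunit of oxidative tissues, had signals of 66489 with pioglitazone and 63300 with vehicle (0.07), and Ldha minus Ldhb was 0.01 with a combined technical error of 0.29.

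Pgam1, phosphoglycerate mutase, had 48261 in the pioglitazone pool and 47600 in the vehicle pool (0.02). A second, dimmer probe of Pgam1 read 2833 with pioglitazone and 2300 with vehicle, a difference of 0.30, so the size of the Pgam1 difference depends on the probe. Eno1, the widely expressed enolase, had 50622 with pioglitazone and 46500 with vehicle (0.12), and its second probe gave 0.20. Pkm, pyruvate kinase of muscle and most non-hepatic cells, had 4873 with pioglitazone and 4880 with vehicle (-0.002). Array-wide, bright genes lay slightly above 0: the 725 genes with a signal of 10000 or more had a median of 0.06, and the 7 enzymes in that class had a median of 0.07. With cyclic loess, which removes such a trend with signal, the median of the enzymes was 0.003 and that of all measured genes 0.007. With quantile scaling these medians were 0.05 and 0.02, and with normexp correction 0.06 and -0.005. The part of signal in the enzyme median was not tested.

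Both transporters were on the negative side. Slc2a1 encodes GLUT1, the basal glucose carrier and a known HIF target. Its 10 spots ran between 1521 and 1776 (median 1643) in the pioglitazone pool and between 1660 and 1920 (median 1855) in the vehicle pool. The ranges overlapped, and the difference was -0.16. At each of the 10 grid positions the scaled pioglitazone spot was the lower one, as it was at every position for 21.2% of the 208 measured replicated probes. It was the higher one at every position for Adm, Pgk1 and Ldha, and for 27.4% of those probes. Slc16a3, the lactate exporter MCT4, had 1464 with pioglitazone and 1650 with vehicle (-0.17) from 1 spot, and -0.32 with normexp background correction.

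Among the HIF regulators, Hif1a, the oxygen-regulated subunit present in tubules, had 6422 in the pioglitazone pool and 6300 in the vehicle pool (0.03). A second Hif1a probe with 10 spots ran between 992 and 1209 with pioglitazone and between 996 and 1150 with vehicle, which overlapped throughout (0.01). Epas1, which encodes HIF-2 alpha, the subunit of endothelial and interstitial cells, had 213 with pioglitazone and 239 with vehicle (-0.17). Egln3, a prolyl hydroxylase that is itself induced by HIF, had 502 with pioglitazone and 596 with vehicle, a difference of -0.25. The gap between Epas1 and Hif1a, -0.20, was smaller than its combined technical error of 0.29.

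The HIF targets were spread more widely than the enzymes. Their 8 measured members ran from -0.38 to 0.52 with a median of 0.15. Of the 8, 4 lay outside 1 technical error, while 73.3% of all measured genes lay within it. The targets were also dimmer, with a median vehicle signal of 690 against 8640 for the enzymes. The part of signal in this spread was not tested. Pdk1, the kinase that inactivates pyruvate dehydrogenase and so turns pyruvate away from the mitochondrion, had the highest difference of all members. Its signal was 158 in the pioglitazone pool and 110 in the vehicle pool, 1.43-fold or 0.52. This was the 1 member of 28 beyond 2 times its technical error (0.41), as were 5.61% of all measured genes, and 1.22% of measured genes had a difference as high or higher. The Pdk1 difference was 0.29 with normexp background correction and 0.60 without scaling between the arrays, where it met the criterion.

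Car9, the membrane carbonic anhydrase used as a marker of hypoxic cells, had signals of 178 with pioglitazone and 134 with vehicle, 1.33-fold or 0.41, just inside 2 times its technical error. The Car9 difference was 0.28 with normexp background correction. Differences as high as that of Car9 were found in 2.63% of measured genes. Pdk1 and Car9 were each read from 1 spot. For scale, 75 replicated probes with signals between 100 and 1000 had a median SD of 0.07 for the difference at a single spot, and 0 of their 750 spots strayed by 0.4 or more from their own probe. The largest stray there was 0.38. Pdk1 and Car9 lie at the dim end of that class. Between 100 and 250, 22 probes had a median SD of 0.09, and 0 of their 220 spots strayed by 0.4 or more. Under 100, 64 probes had a median SD of 0.18, and 43 of their 640 spots (6.72%) did. These figures cover spot noise within this pair of arrays, not differences between animals or between labellings.

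Adm encodes adrenomedullin, a vasodilator peptide. Its 10 spots ran between 2049 and 2333 (median 2229) in the pioglitazone pool and between 1690 and 1920 (median 1785) in the vehicle pool. All pioglitazone spots lay above all vehicle spots, and the difference was 0.29, or 1.23-fold. Vegfa, the main angiogenic factor of the pathway, behaved otherwise. Its 10 spots ran between 769 and 831 (median 805) with pioglitazone and between 768 and 848 (median 803) with vehicle, which overlapped throughout (-0.003). Of the 7 members with measured replicated probes, Adm and Pgk1 were wholly above and 0 were wholly below. Over all 208 such probes the shares were 15.9% above and 14.4% below, so a gap between spots is common on these arrays, and it describes the 2 pools as hybridised.

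**Figure D2:**
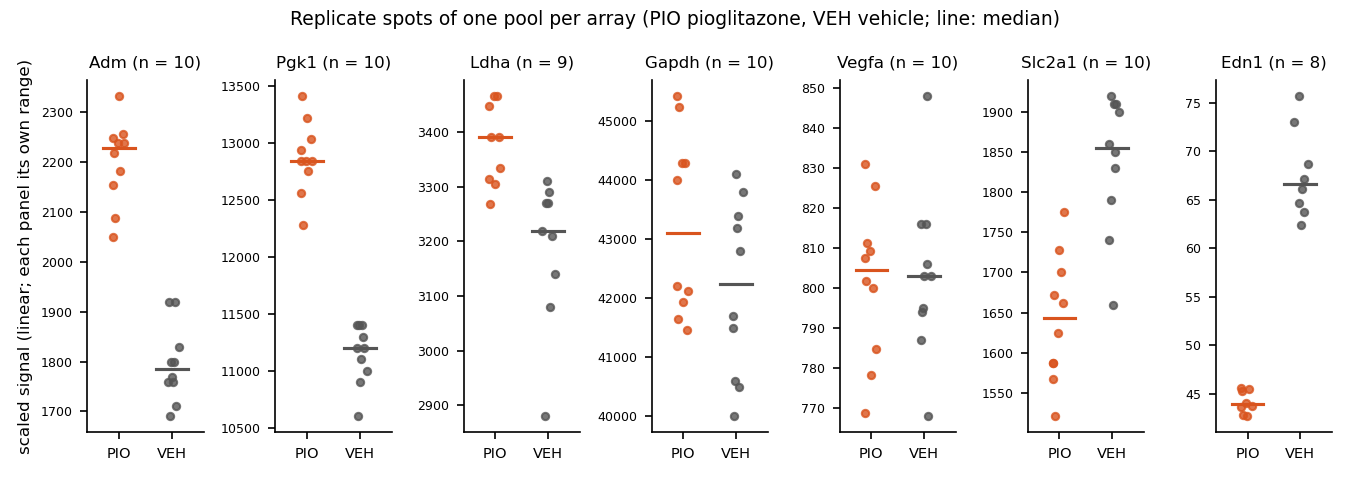
Scaled signal of every usable replicate spot for 6 members and for Edn1, pioglitazone on the left and vehicle on the right of each panel, with a line at the median. Adm and Pgk1 separate upwards, Edn1 downwards, and the other genes overlap. Each panel has its own linear range that does not start at 0.

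Ndrg1, a stress-induced gene of differentiated epithelium, had 37683 in the pioglitazone pool and 33400 in the vehicle pool (0.17), and its second probe gave 0.33. Bnip3, a mediator of mitochondrial autophagy, had 4165 with pioglitazone and 3820 with vehicle (0.12). P4ha1, a collagen prolyl hydroxylase subunit, had 552 with pioglitazone and 577 with vehicle (-0.07). Ddit4, an inhibitor of mTOR complex signalling that is also induced by glucocorticoids and other stresses, had the lowest difference of all members, with 209 with pioglitazone and 272 with vehicle (-0.38). Differences that low or lower were found in 5.67% of measured genes. The 10 spots of Epo, the hormone of red cell formation, ran between 1.39 and 3.52 with pioglitazone and between 1.57 and 3.01 with vehicle, none of them well above background, so no fold is given.

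Set side by side, the enzymes had a median of 0.07 over 15 genes and the HIF regulators and targets a median of 0.03 over 11 genes. The gap between these medians was 0.04 and lay between 0.02 and 0.07 over the 12 settings. The middle 50% of the enzymes ran from -0.01 to 0.14 and that of the regulators and targets from -0.12 to 0.23. Over all measured genes it ran from -0.11 to 0.14. The regulators and targets had the wider spread and lower signals, with a median vehicle signal of 596 against 8640 for the enzymes. Pdk1, Car9 and Adm stood on one side and Ddit4 and Egln3 on the other.

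The other enzymes and factors of the same pathways were described from wider lists. Of 17 further glycolytic enzymes and their regulators, 0 were higher and 1 was lower by the criterion, with a median of 0.10. Over all measured genes 0.754% were higher and 1.76% lower. The 1 lower enzyme was Ldhc, the testis-type lactate dehydrogenase, read from 1 spot. Its signal was 93.1 in the pioglitazone pool and 159 in the vehicle pool (-0.77). Ldhc was called under 11 of the 12 settings and was at -0.50 with normexp correction, where it was not called. The regulators of phosphofructokinase went both ways, with the bifunctional enzymes Pfkfb1 at -0.30 and Pfkfb3 at -0.16 and Pfkfb4 at 0.36. Pfkfb4 was at 0.04 with normexp correction. Pgm1, phosphoglucomutase, was at 0.36 and Pklr, the liver and kidney pyruvate kinase, at 0.27. None of these 5 met the criterion.

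At the fate of pyruvate, 0 of 13 measured genes met the criterion in either direction, beside 2.51% of all measured genes, and the median was 0.06. The E1 subunits of pyruvate dehydrogenase stood at the top of that list. Pdha1, the subunit that Pdk1 phosphorylates, had 15300 with pioglitazone and 11900 with vehicle (0.36), and Pdhb had 6536 with pioglitazone and 5150 with vehicle (0.34). The other subunits of the complex were lower in the list, with Dlat at 0.04 and Dld at 0.11. Of the other dehydrogenase kinases, Pdk2 was at 0.07, Pdk3 at 0.09 and Pdk4 at -0.17, the last from a dim probe. The malic enzyme Me1 was at 0.18, the phosphatase Pdp1 at -0.14 and Bsg, the partner protein of lactate transporters, at -0.06. The reverse pathway, gluconeogenesis, had positive differences in 6 of 7 genes, where 56.1% of all measured genes were positive. Its median was 0.11, with none meeting the criterion. Pck1, its controlling enzyme, was at 0.31, the carboxylase Pc at 0.22, Fbp1 at 0.16 and the mitochondrial Pck2 at -0.06. Read from the probe with the largest difference, Pck1 was at 0.41, Fbp1 at 0.31, Pck2 at -0.16 and Me1 at 0.28, so these sizes depend on the probe.

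The machinery around HIF had small differences between the pools. Of 13 measured subunits and degradation factors, 0 met the criterion, as 2.51% of all measured genes did, so that count says little about this list. The median was 0.04 with a range from -0.10 to 0.23. The von Hippel-Lindau gene Vhl, which marks hydroxylated HIF for degradation, was at 0.08 and the prolyl hydroxylase Egln2 at 0.08. The asparaginyl hydroxylase Hif1an was at 0.23, the coactivator Crebbp at 0.13 and the beta subunit Arnt2 at 0.09. The lowest were the ubiquitin ligase Siah1 at -0.10, Arnt at -0.07 and Hif3a at -0.03. The last 2 were dim, Arnt at 15.2 with pioglitazone and 16 with vehicle and Hif3a at 20.7 and 21.1. Over the settings Arnt ran from -0.23 to 0.01 and Hif1an from 0.08 to 0.31. A second Crebbp probe gave 0.41.

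Of 36 further genes known as HIF targets in other settings, 0 were higher and 1 was lower by the criterion, 23 had negative differences and the median was -0.03. Over all 10484 measured genes, 0.754% were higher, 1.76% were lower and 4596 had negative differences. The 1 lower target was Edn1, which encodes endothelin-1, a vasoconstrictor and mitogen. Its 8 usable spots ran between 42.7 and 45.6 (median 43.9) in the pioglitazone pool and between 62.4 and 75.7 (median 66.6) in the vehicle pool. All pioglitazone spots lay below all vehicle spots, and the difference was -0.61. Of 2 spots left out for an outlier flag, one read 43.3 with pioglitazone and 63.3 with vehicle, and the other 65.5 with pioglitazone and 62.6 with vehicle. Keeping both gave -0.54, under the 1.5-fold criterion. Median scaling (-0.56), no scaling (-0.53), quantile scaling (-0.58) and normexp correction (-0.35) also ended the call, so Edn1 was called under 7 of 12 settings.

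Next to Edn1 stood Loxl2, a collagen cross-linking oxidase (-0.44), and Cp, the ferroxidase ceruloplasmin (-0.42). On the positive side were the secreted glycoprotein Stc2 (0.44), the ectonucleotidase Nt5e (0.42) and the mitochondrial adenylate kinase Ak4 (0.30).

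Markers of cell types also differed between the pools. For comparison, 0.754% of all 10484 measured genes were called higher and 1.76% lower, 56.1% had positive differences and 4596 had negative ones. All 7 measured fibroblast and pericyte markers had negative differences, with a median of -0.27 and a summed signal of 14134 in the pioglitazone pool against 17635 in the vehicle pool, and 0 of them met the criterion. All 6 measured macrophage markers were also negative, with a median of -0.38, a summed signal of 4240 against 5465 in the vehicle pool, 1 called lower, and Cd163 not well above background on either array. The 6 measured T and B lymphocyte markers were all negative, with a median of -0.40, 1 called lower and sums of 489 with pioglitazone and 695 with vehicle. The 4 erythroid markers were all negative, with a median of -0.51, 1 called lower and sums of 6393 with pioglitazone and 7670 with vehicle. Among them Slc4a1 (-0.03) is also on the intercalated cell list, where it is the 1 negative marker. The 5 urothelial markers were all negative, with a median of -0.33, 2 called lower and sums of 1811 with pioglitazone and 2293 with vehicle. Lists of immune, stromal, blood and urothelial cells thus lay below 0, and those of podocytes and intercalated cells lay mostly above it. The 5 podocyte markers were all positive, with a median of 0.30, 0 called and sums of 14069 with pioglitazone and 12501 with vehicle. Of the 6 intercalated cell markers 5 were positive, with a median of 0.23, 0 called and sums of 105506 with pioglitazone and 91395 with vehicle. The 5 measured endothelial markers summed to 14715 with pioglitazone and 13021 with vehicle, with a median of -0.04. The 8 proximal tubule markers were all positive, with a median of 0.12, 0 called and a summed signal of 270072 with pioglitazone against 252078 with vehicle. The part of these cell types in the differences of the genes above was not tested.

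**Figure D3:**
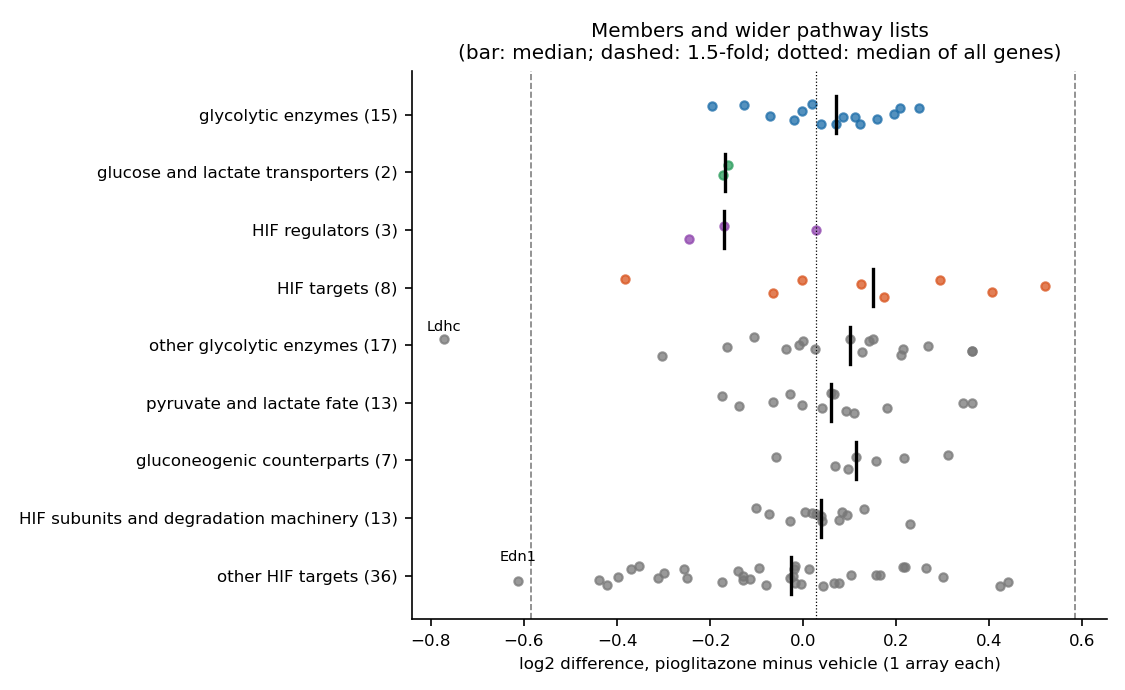
Log2 difference (pioglitazone minus vehicle) of each measured gene in the 4 member groups (coloured) and in 5 wider lists (grey), with a bar at each median and the number of genes in brackets. Ldhc and Edn1 are the 2 points beyond the dashed 1.5-fold lines.

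Of the 43379 spots besides controls, 73.1% were well above background on the pioglitazone array and 71.8% on the vehicle array, with 0 saturated. Of the kidney's own markers, all 8 of the proximal tubule, the 4 of the thick ascending limb that had a probe and all 6 of the collecting duct principal cell were well above background on both arrays. Among the markers of tissues beside the kidney, Lep (adipocyte), Ckm, Myh1 and Myh4 (skeletal muscle) and Cyp11b2 (adrenal) were not well above background on either array, while 5 adipocyte, 2 skeletal muscle and 4 adrenal markers were measured. The 5 adipocyte markers ran from -2.27 to 0.001, with 2 called lower and a summed signal of 1735 in the pioglitazone pool against 2655 in the vehicle pool. Over all measured genes 1.76% were called lower. The 2 skeletal muscle markers stood at -0.52 and 0.15, with sums of 156 with pioglitazone and 149 with vehicle. The 4 adrenal markers ran from -0.13 to 0.49, with sums of 118 with pioglitazone and 104 with vehicle, and 0 markers of either list were called. Cyp11b1, an adrenal enzyme, was well above background with vehicle alone, at 1.34 in the pioglitazone pool and 28.9 in the vehicle pool.

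**Figure D4:**
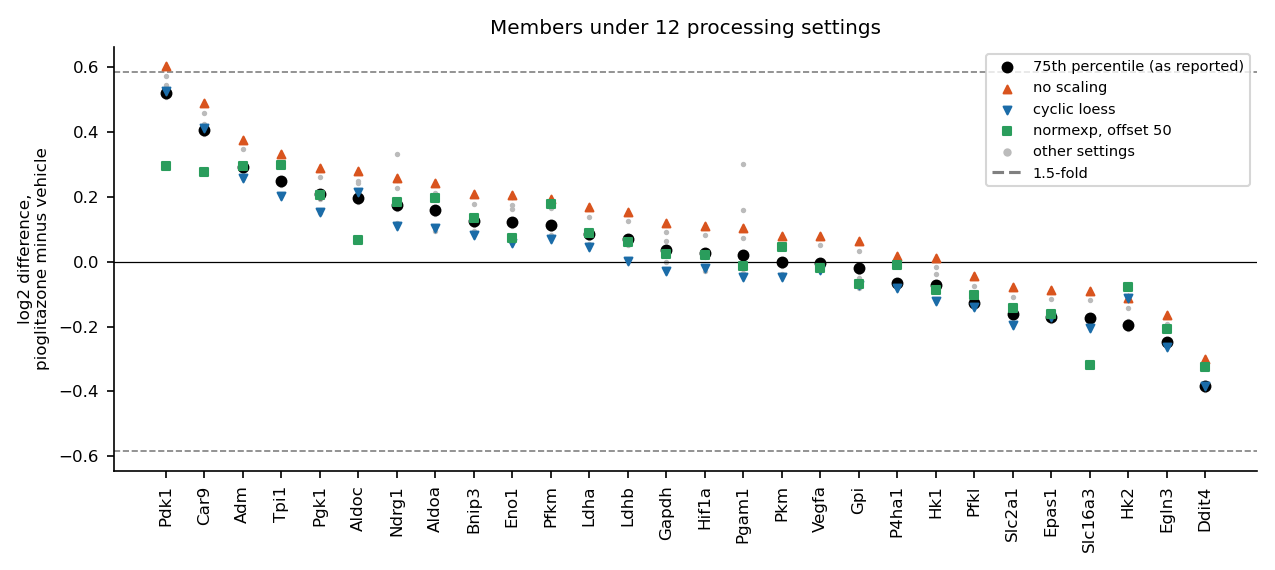
Log2 difference (pioglitazone minus vehicle) of each of the 28 members under 12 processing settings, ordered by the reported value. The 13 members positive and the 7 negative under all 7 scalings and background corrections lie at the ends, and the 8 that take both signs lie in the middle. Pdk1 without scaling is the 1 point past the dashed 1.5-fold line.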

How the data were processed

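RNA of 1 pool per group was labelled with Cy3 and read on 1 Agilent array each. Per the submitters' processing notes, the authors used Agilent Feature Extraction 10.7.3.1. The deposited spot intensity values are background-subtracted and linear, and the arrays were not scaled to each other. At all 45018 features of both arrays the deposited value table holds the same intensity values. Here, 149 spots with an outlier flag were left out, signals were put on the log2 scale, and a shift of 0.08 between the 75th percentiles was removed. Replicate spots were averaged. Accessions were matched to RefSeq's GRCr8 gene table without versions, which named 16959 of 41012 probes. The files' own annotation uses another build, so no coordinates were taken from it. Each gene was read from its brightest probe and called measured when at least 50% of that probe's spots were well above background on both arrays. The alternatives covered scaling, background, probe choice, filters, flags, grid rows and the fold threshold. Members and lists were chosen with earlier results of these data known. All members are named, with the 3 largest differences in each direction per wider list. Vhl, Egln2, Pdk2, Pdk3, Dlat and Dld were named after their values were seen. The spot overlap, the spot strays with their limit of 0.4, the signal classes and the isoform gaps were likewise added after the data were seen. Python 3.11.15 and limma 3.58.1 were used.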

Additional observations from a re-analysis of the deposited data

How the results depend on the processing

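The count of members higher by the criterion was 1 without scaling between the arrays and 1 at a 1.3-fold threshold, Pdk1 in both cases, and the count of members lower was 0 under every setting run. At 1.3-fold, 1.76% of all measured genes were higher. The median of the glycolytic enzymes lay between 0.003 (cyclic loess) and 0.15 (no scaling). That of HIF regulators and targets lay between -0.02 (cyclic loess) and 0.11 (no scaling), and that of all members between -0.02 and 0.11, so the last 2 change sign with the scaling. The median of all measured genes moved to 0.11 without scaling and to 0.01 with cyclic loess. Over 7 scalings and background corrections, 13 members kept a positive and 7 a negative sign, while Hk1, Gpi, Gapdh, Pgam1, Pkm, Hif1a, Vegfa and P4ha1 took both. With median scaling or no scaling Ldha joined Adm and Pgk1 as wholly above in its spots, an alternative added after seeing the data, and the share over all replicated probes was then 21.6% and 25%. Car9 and the probe used for Eno1 lie within bands 6 and 7 of 10 bands of grid rows, where 2.71% of single-spot genes were called against 2.45% elsewhere, and leaving those rows out removed Car9. Dim probes limit Hk2, Pdk4 and Epo, and also Pfkfb3, Arnt and Hif3a. For these settings the cause was not tested. No paired analysis was possible because there is a single array on each side.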
